A study of Mus musculus with 2 samples.

Results

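The spots described here are 120 places on a Visium array that carried the most RNA of 6 genes of the meninges and large vessels, among 2485 tissue spots of a mouse brain section and 2722 barcodes in all. Each spot was scored by the mean, over Mgp, Igf2, Fmod, Slc6a20a, Col1a2 and Igfbp2, of the natural log of 1 plus its UMIs (unique molecular identifiers, counts of captured molecules) per 10000 UMIs of the spot. The 120 spots with the highest scores among those marked as tissue and with at least 500 UMIs were taken, and the remaining 2365 are the other tissue spots. The series holds brain sections of 6-month-old male mice of 2 genotypes, 1 labelled G2-3 (A53T alpha-synuclein), a model that carries a mutant form of the synaptic protein alpha-synuclein, and 1 labelled Wild Type, from fresh-frozen tissue. What promoter drives the transgene is not stated in the labels. The count matrices deposited for the 2 samples were identical, with all 2722 barcodes shared, so they differed by less than sampling noise and were counted as 1 library, to which no genotype is assigned here. The mice could therefore not be compared, and all values below are differences between places in 1 section.

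The meninges are the membranes around the brain. The inner ones, the pia and the arachnoid, are built by fibroblasts that lay down collagen, make retinoic acid and carry transporters for organic anions, and the arteries that run between them are wrapped in smooth muscle. Beneath the pia, the end feet of astrocytes form the glia limitans, and macrophages that differ from microglia patrol the space between. A Visium spot is a small region that can hold several cells of different types or parts of cells, so a spot rich in meningeal RNA can also hold cortex, white matter or blood.

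With no replicate section there is no test between groups of spots, and no p-value is given. UMIs were summed over the spots of a set and scaled to 1000000 UMIs (CPM). Ratios are given as log2, the 120 spots over the other tissue spots, with an exact 95% interval that covers counting error only. The spots were chosen by the levels of the 6 score genes, which are therefore given as a description. The score ran from 1.40 to 3.54 in the 120 spots (median 2.17) and from 0 to 1.39 in the other tissue spots (median 0.17). The 10 spots just inside the limit scored 1.40 to 1.47 and the 10 just outside 1.34 to 1.39, and 8 of the 10 inside and 7 of the 10 outside touched a spot of the 120. Of the 120 spots, 66 held UMIs of all 6 score genes, 38 of 5 and 16 of 4, whereas 6 of the other tissue spots held all 6 and 736 held none. Summed levels in the 120 spots and in the other tissue spots were 2015 and 44.3 CPM for Mgp (matrix Gla protein), 2947 and 71.3 for Igf2, 441 and 6.59 for Fmod (fibromodulin), 702 and 17.1 for the amino acid transporter gene Slc6a20a, 586 and 16.4 for Col1a2, and 2286 and 78.8 for Igfbp2. The 6 genes take no further part in the comparisons.

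The 120 spots held 655182 UMIs (median 5081 per spot, 1247 to 15334), against 20342765 in the other tissue spots (median 6844, 1183 to 80174). Of the 19465 genes in the panel, 10997 had at least 100 UMIs over both sets and were compared. Among them, 1273 (11.6%) were higher in the 120 spots by 2-fold or more and 1802 (16.4%) were lower by as much, and the median log2 ratio of all compared genes was -0.18. With totals that left out the haemoglobin genes, Ptgds and the score genes, 1565 were at least 2-fold higher and 1365 at least 2-fold lower, and that median was -0.02. Since the score picked the spots, these counts are the background against which the lists below are read. The minimum of 100 UMIs also counts the 120 spots, so a gene scarce elsewhere could pass because of them. Aldh1a2, for example, had 70 UMIs in the 120 spots and 39 in the other tissue spots. The ranks, list counts and list medians below therefore follow in part from this minimum.

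The 120 spots lay along the borders of the section and in a long band inside it. A spot at the tissue edge was one with fewer than 6 tissue neighbours on the hexagonal grid. Leaving out spots on the frame of the array, 61 of 118 of the meningeal and large-vessel spots were at the edge (51.7%, exact 95% binomial interval 42.3 to 61.0), against 240 of 2364 other tissue spots (10.2%, 8.96 to 11.4). Seen from the edge, 61 of 301 edge spots were among the 120 (20.3%). The spots formed 22 patches of touching spots, 5 of them with 5 or more, and 12 spots touched none of the others. The largest patch, of 66 spots, filled array rows 32 to 37 and columns 44 to 84, and 16 of the 66 were at the edge (24.2%, 14.5 to 36.4), against 45 of 52 of the others (86.5%, 74.2 to 94.4).

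**Figure D1:**
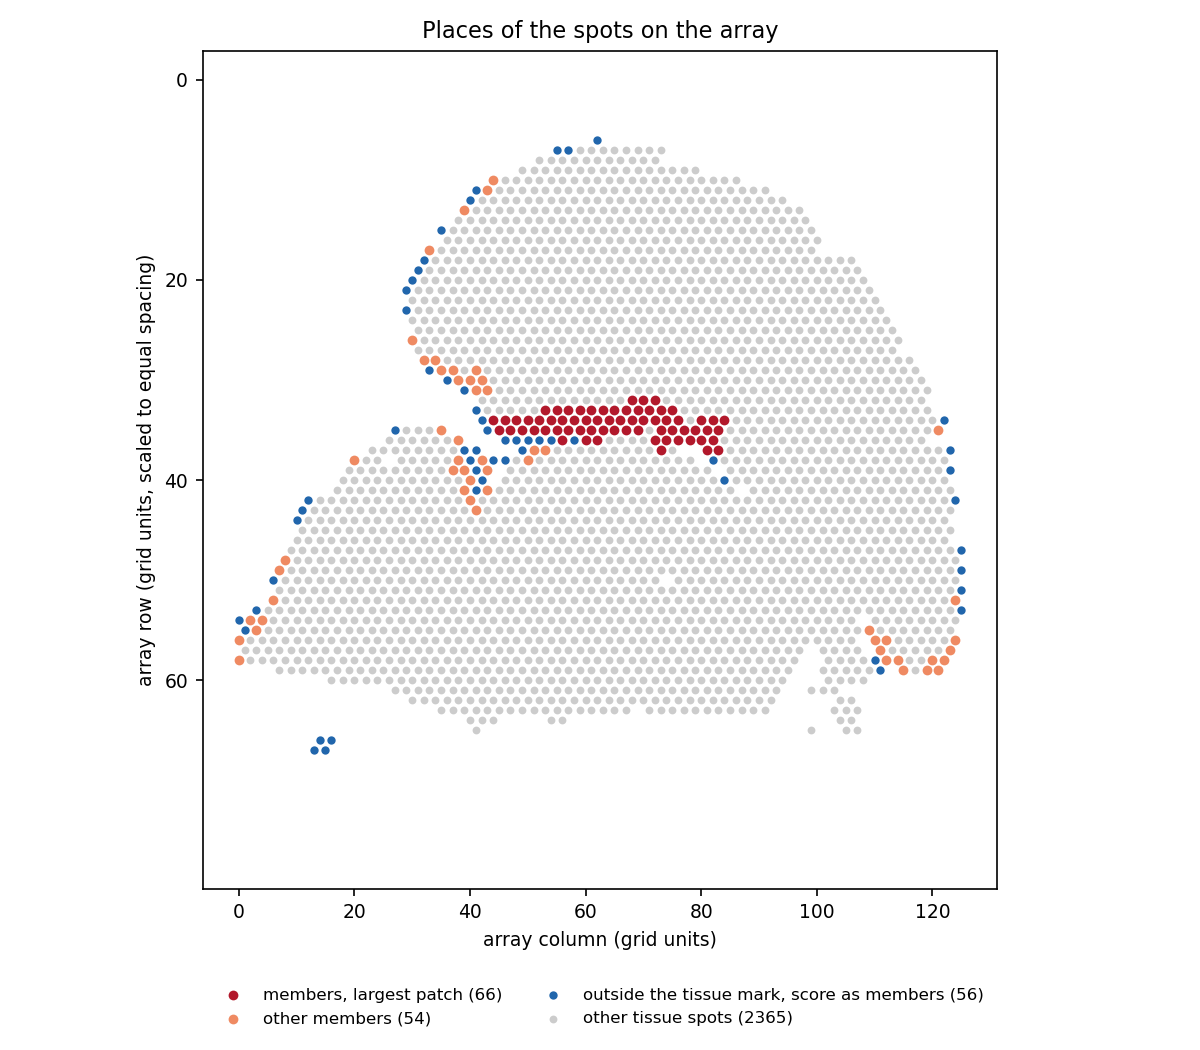
Places of the spots on the array, with array column and row on the axes in grid units. The 66 spots of the largest patch (red) form a band inside the section, the other 54 of the 120 (orange) lie mostly along its borders, and the 56 spots outside the tissue mark with scores as high (blue) trace the same borders beside the other tissue spots (grey).

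The largest patch ran between 2 unlike regions. Within 3 grid steps of it on the side of lower rows, 68 spots had a median of 13758 UMIs, and on the side of higher rows 53 spots had a median of 4369. C1ql2 and Prox1, genes of dentate gyrus granule cells, reached 1609 and 401 CPM on the lower side, against 65.8 and 27.1 on the higher side. The band therefore bordered spots rich in dentate granule cell RNA on one side and spots with far less of it on the other.

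Transporters of the leptomeninges stood at the top of the genes that the score did not use. Of the 20 genes with the highest ratios, 3 were transporters: Slc13a4, a sodium-coupled sulfate carrier, Slc22a6, the organic anion transporter OAT1, and Slc6a13, a GABA and taurine carrier. Slc13a4 was 66.5-fold higher in the 120 spots (log2 6.06, 5.59 to 6.54), with 120 UMIs there and 56 in all other tissue spots. Slc22a6 had a log2 ratio of 5.78 (5.42 to 6.14) and Slc6a13 of 5.63 (5.29 to 5.98). Per spot, Slc22a6 ran from 0 through a median of 197 to 2391 CPM in the 120 spots, and from 0 through a median of 0 to 594 in the others. The ranges overlapped, because 46 of the 120 had no Slc22a6 UMI, but 17 of them lay above the highest of the other 2365. Of the 26 listed leptomeningeal transporters and junction genes 18 could be compared, of which 12 were at least 2-fold higher and none lower (median log2 1.80). Slc22a8, the organic anion transporter OAT3 (4.28), the dicarboxylate carrier Slc13a3 (4.58), the cystine carrier Slc7a11 (3.50) and the gap junction gene Gjb2 (4.56) were among the 12. Gjb6 and Gja1, connexins that astrocytes also use, had smaller ratios of 2.0 and 1.55. Cdh11, a mesenchymal cadherin, was at -0.52 (-1.40 to 0.24), so that not all genes of the list were high.

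Ptgds, which encodes the prostaglandin D synthase of the arachnoid and of cerebrospinal fluid, was also among the 20 genes with the highest ratios. It had 36982 UMIs in the 120 spots and 36515 in all other tissue spots, a 31.4-fold difference in CPM (log2 4.97). Per spot it ran from 4527 through a median of 33262 to 290167 CPM in the 120 spots and from 0 through 1389 to 102477 in the others. All 120 spots were above the median of the others, 115 above their 95th percentile and 18 above their highest spot. Other genes of the prostaglandin and lipid carrier list were also high, with 9 of 13 compared at least 2-fold higher and none lower (median 1.79). The prostacyclin synthase gene Ptgis was at 5.43 (4.92 to 5.94), the prostaglandin E synthase gene Ptges at 2.43, the lipocalin gene Apod at 2.89 and Apoe at 1.49. Fabp5, a fatty acid carrier, was level between the sets at -0.01 (-0.24 to 0.21).

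**Figure D2:**
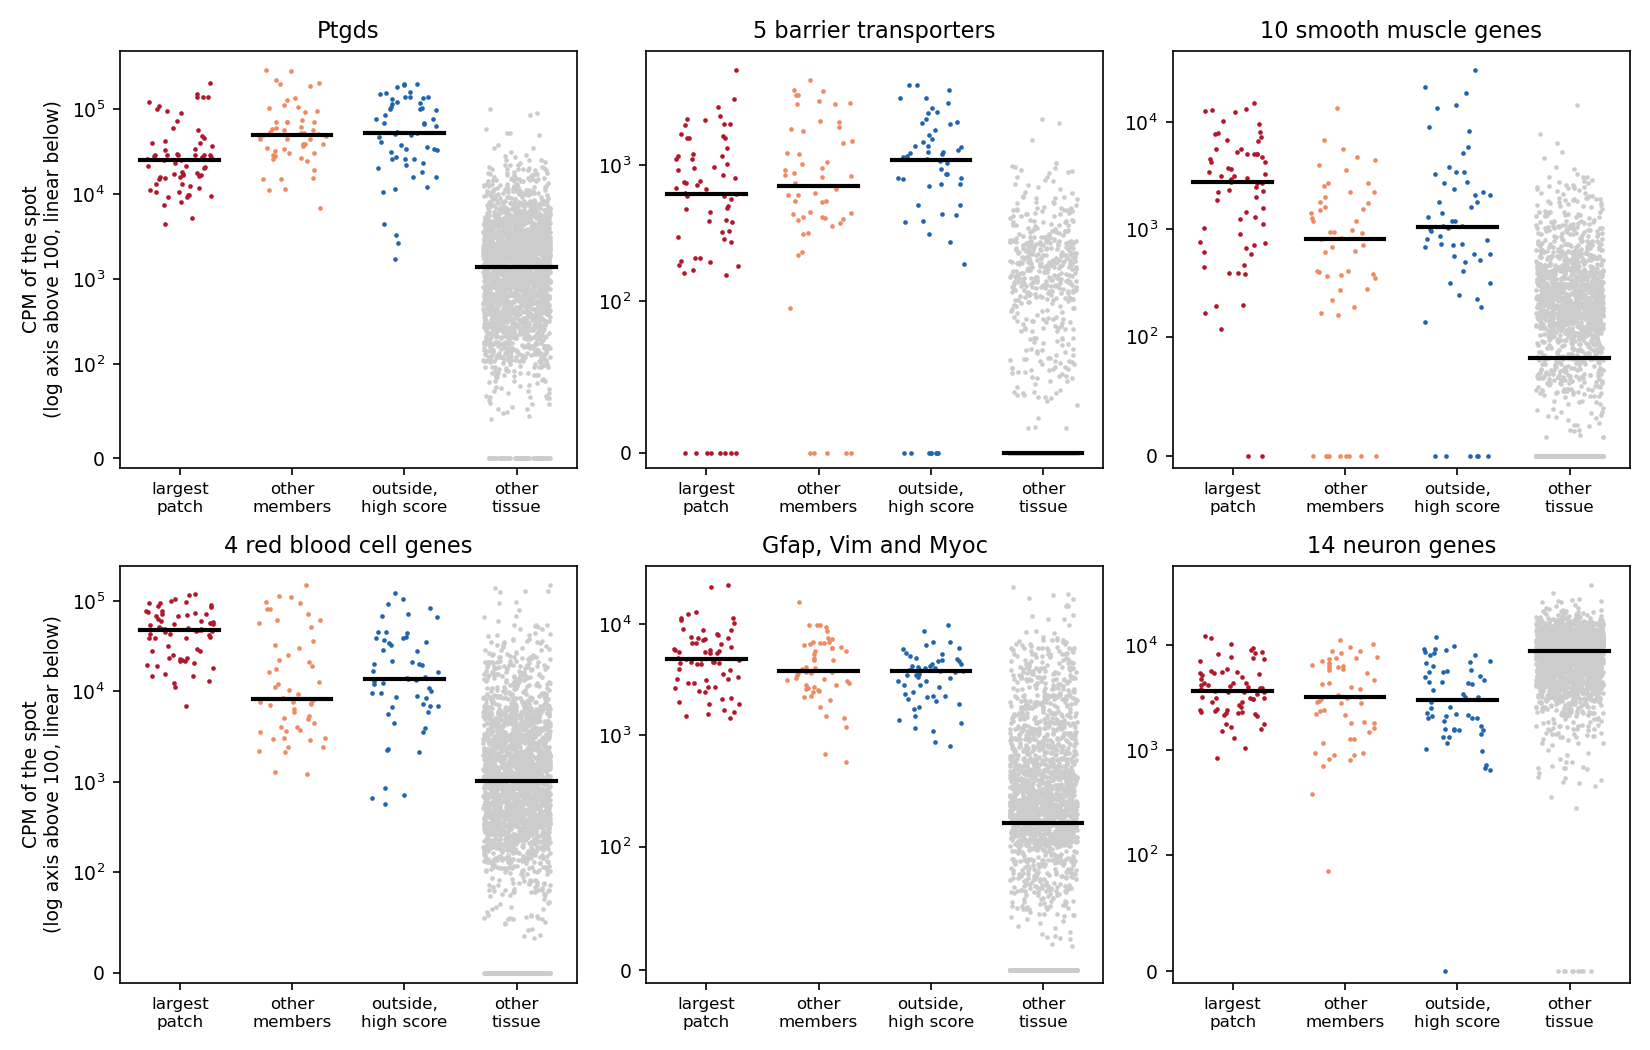
CPM of each spot, on an axis that is logarithmic above 100 and linear below, for Ptgds and 5 gene sums in the largest patch, the other spots of the 120, the high-scoring spots outside the tissue mark and the other tissue spots. Bars mark medians, which for Ptgds are 25222, 50680, 53090 and 1389, and the groups overlap in every panel.

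Retinoid genes of synthesis and of binding were among the high ones, and none of those compared was 2-fold lower. Not every synthesis gene was high. Over the other tissue spots, the retinol dehydrogenase gene Rdh10 was at -0.26 (-1.48 to 0.73) in the largest patch. In the other spots of the 120 it was at -0.51 (-2.39 to 0.85). Of 19 listed genes 14 were compared, 9 of them at least 2-fold higher (median 1.98). Aldh1a2, which makes retinoic acid in the meninges, was at 5.80 (5.22 to 6.40) with 70 UMIs in the 120 spots and 39 elsewhere, and Aldh1a1, a related dehydrogenase, at 1.89. Aldh1a2 was found in 36 of the 120 spots (30.0%) and in 37 of the 2365 others (1.56%). Cyp1b1, a cytochrome that can also act on retinoids, was at 5.32 and the retinoic acid carrier gene Crabp2 at 5.48. Cyp26b1, which breaks retinoic acid down, was at 3.46 (2.79 to 4.08). The receptors were nearer to level, at 0.58 for Rara, 0.49 for Rxra and 0.18 for Rxrb, with Rarg at 1.44.

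Markers of meningeal and perivascular fibroblasts other than the score genes were raised as a group. Of 18 listed, 13 were compared, with 11 at least 2-fold higher and none lower (median 4.56). All 18 had at least 1 UMI in the 120 spots, and the list summed to 2810 CPM there, against 311 in the other tissue spots. Col1a1 (5.22, 4.83 to 5.63) and Col3a1 (5.38, 4.86 to 5.92), the partners of the score gene Col1a2 in fibrillar collagen, and Pdgfra (1.90), a receptor shared with oligodendrocyte precursors, were among them. Col1a1 was found in 56 of the 120 spots, with a highest value of 943 CPM, against 969 in the highest of the others, so no single spot stood above the rest. Foxc2 and Foxd1, forkhead factors of mesenchyme, were at 5.75 and 4.56. All 6 compared mesenchymal transcription factors, of 25 listed, were at least 2-fold higher (median 2.01), and Zic1 and Zic2, zinc finger factors of the meninges and dorsal brain, were at 2.55 and 2.65. En1, a midbrain boundary factor and the third gene compared of the Zic, Lmx and En list, had 0 UMIs in the 120 spots and 240 in the others.

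Several matrix genes with high ratios serve fibrillar collagen and its handling. Pcolce, which enhances procollagen cleavage, was at 4.96 (4.65 to 5.28), Bgn (biglycan) at 4.94 (4.55 to 5.34), and Serpinh1, the collagen chaperone, at 3.41. The collagen list as a whole was mixed: of 14 compared, 5 were at least 2-fold higher and 2 lower (median 0.78), with Col6a2 at 2.70 and Col27a1 at -1.49. Its median ran from 0.32 to 4.56 over 22 other settings, the highest being against other tissue spots of the nearest UMI total. Fewer genes reached the minimum there, so the genes behind that median can differ. Basement membrane genes went both ways. The laminin chains Lamc3 (3.65), Lamb2 (2.93) and Lama1 (2.74) were high, while Col4a1 (0.63) and Col4a2 (-0.02), which every vessel makes, were within 2-fold, and agrin (Agrn) was lower at -1.43. That list had 7 of 12 at least 2-fold higher and 2 lower (median 1.76). Of 15 elastic fibre and matricellular genes 10 were higher and none lower (median 1.85), with the thrombospondin gene Thbs1 at 5.29, Fbln5 at 4.25, Efemp1 at 4.06, elastin (Eln) at 3.77 and fibronectin (Fn1) at 3.75. All 4 compared small leucine-rich proteoglycans, other than the score gene Fmod, were higher (median 2.86), and 9 of 14 matrix processing genes were higher (median 1.38).

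Bone morphogenetic proteins were among the secreted signals with high ratios. Bmp6 was at 5.17 (4.89 to 5.44) and Bmp7 at 4.09 (3.74 to 4.44). Id1 and Id3, which these ligands are known to induce, were at 2.79 and 3.09. Id2, from the list counted below, was at 0.79 in the largest patch and 0.44 in the meningeal and large-vessel spots outside it. In the same order, Smad7 was at 0.56 and -0.39, and Bambi at 0.18 and -1.39. Smad6 was at 4.05 and 4.38, from 4 and 3 UMIs. Signalling by these ligands was not tested. Of 17 genes of the bone morphogenetic and transforming growth factor beta list 9 were at least 2-fold higher and 2 lower (median 1.15), the lower ones being Bmp3 (-1.34) and the antagonist gene Chrd (-1.33). Of the other insulin-like growth factor genes 6 of 11 were higher and none lower (median 1.13). The binding proteins carried that count, with Igfbp7 at 2.89, Igfbp3 at 2.34 and Igfbp4 at 1.57, while the receptor genes Igf1r and Igf2r were at 0.01 and 0.50. Of the Wnt list 4 of 12 were higher and none lower (median 0.52), with Wnt5a at 2.42 and Wnt4 at 1.98. Cxcl12, a chemokine of the pia, was at 1.90 (1.62 to 2.17) and Il34, a microglial growth factor gene, at 1.13, 2 of the 3 higher genes among 5 compared chemokines and cytokines (median 1.13).

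**Figure D3:**
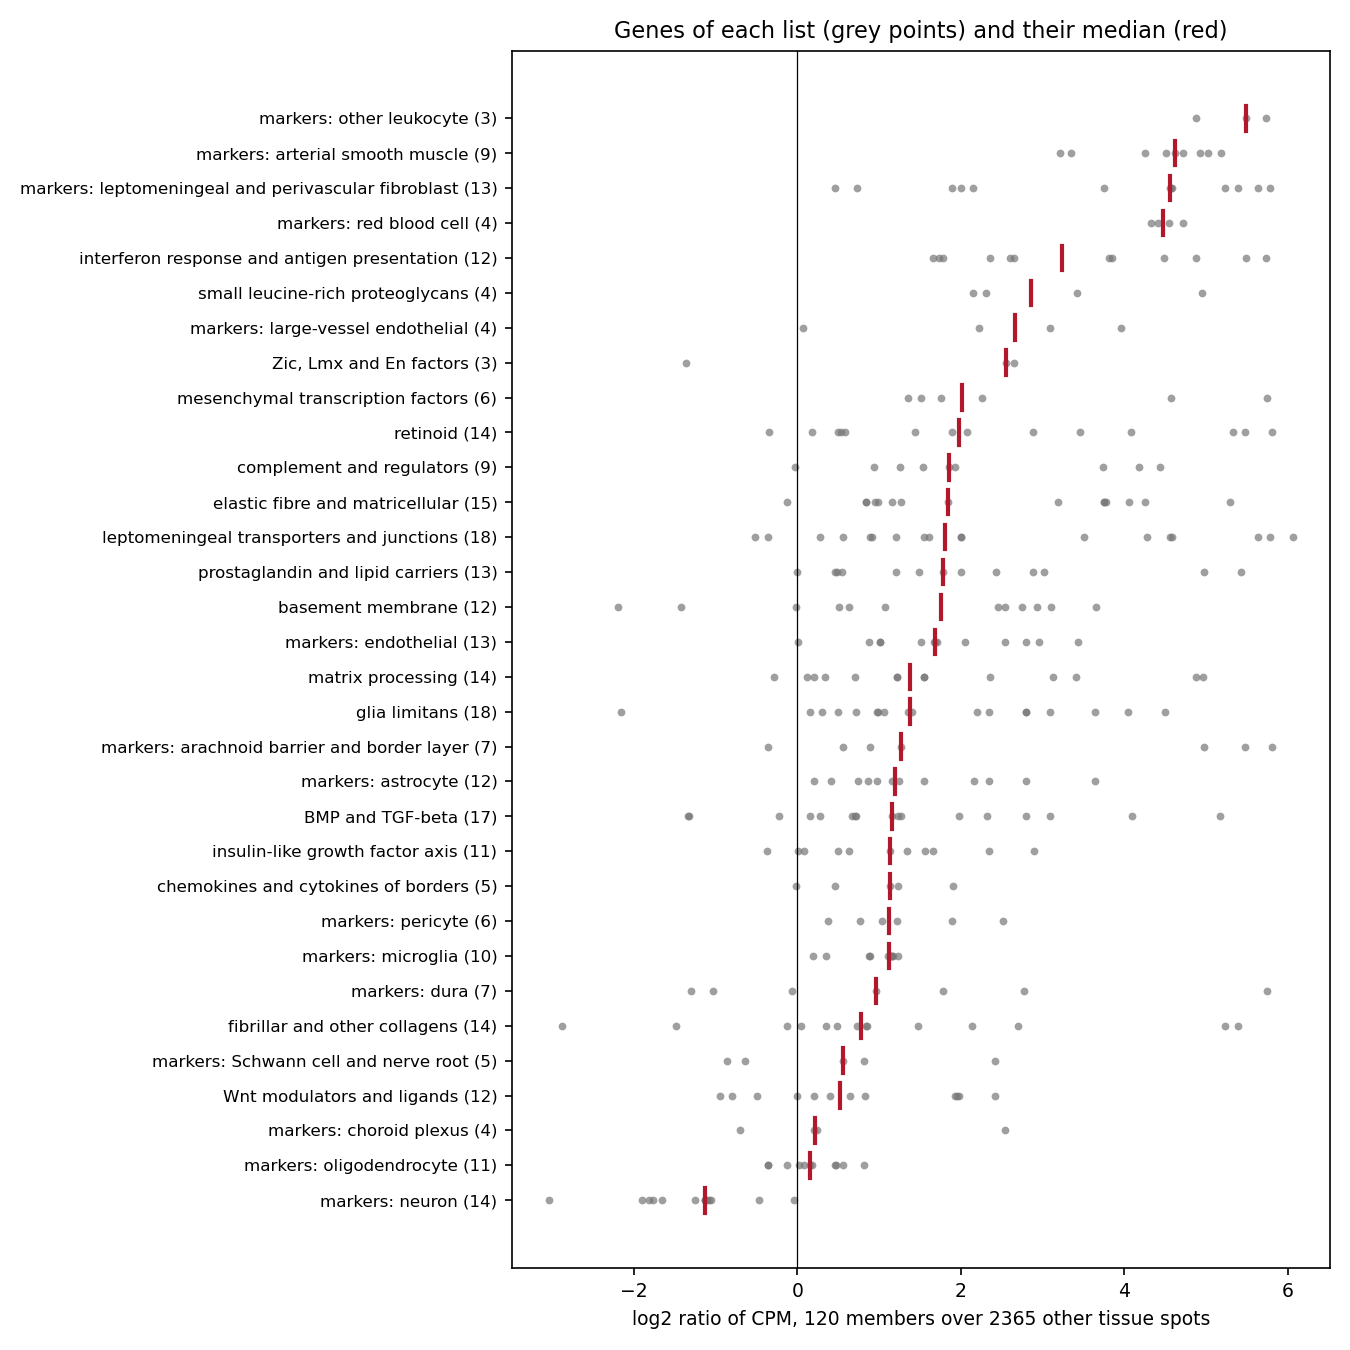
Log2 ratio of CPM, the 120 spots over the other tissue spots, for each compared gene of each list with at least 3 compared genes (grey points) and the list median (red bars), ordered by median. The leukocyte median of 5.48 rests on the 3 class II genes, the only ones compared of 16 listed. Smooth muscle, fibroblast and red blood cell markers have medians of 4.47 to 4.61, oligodendrocyte markers one of 0.15, and neuron markers one of -1.13.

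Of the vessel wall, smooth muscle genes had larger ratios than genes shared by all endothelium. All 9 compared smooth muscle markers, of 10 listed, were at least 2-fold higher (median 4.61). Tagln (5.19), Acta2 (5.02, 4.83 to 5.22), Myh11 (4.92), Lmod1 (4.72), Myl9 (4.61) and Des (4.51) encode parts of the contractile apparatus, and Mylk (3.35) and Smtn (3.21) were the lowest of the 9. Acta2 ran per spot from 0 through a median of 304 to 8248 CPM in the 120 spots and from 0 through 0 to 3105 in the others. It was found in 79 of the 120 (65.8%) and in 287 of the others (12.1%), and 2 of the 120 lay above the highest of the others. Of 4 compared large-vessel endothelial genes 3 were higher (median 2.66), namely Vwf, the gene of von Willebrand factor (3.96, 3.67 to 4.25), Vcam1 (3.09) and the arterial gene Sema3g (2.22). Endothelial genes in general had 11 of 13 higher (median 1.69), with Itm2a at 3.44 and the tight junction gene Cldn5 at 2.05. Pericyte markers had 4 of 6 higher (median 1.13), with Pdgfrb at 2.52.

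Red blood cell RNA was higher in the 120 spots as well. The 4 measured markers were all higher (median 4.47): the haem synthesis gene Alas2 (4.71), Hbb-bt (4.54), Hba-a2 (4.41) and Hbb-bs (4.33). The haemoglobin genes share sequence, so their division between copies is uncertain. Hba-a2 ran per spot from 0 through a median of 19339 to 116496 CPM in the 120 spots and from 0 through 681 to 103867 in the others, with 119 of the 120 above the median of the others and 1 above their highest. Summed, the 4 genes made 42993 CPM in the 120 spots and 2055 in the other tissue spots. Their part in the other differences was not tested beyond the totals given above, which leave them out.

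Immune genes were raised in 2 groups of different size. Cd74, the invariant chain of MHC class II, was at 5.73 (5.46 to 5.99), with 322 UMIs in the 120 spots and 189 in all others, and the class II chains H2-Aa and H2-Ab1 were at 5.48 and 4.88. Cd74 was found in 94 of the 120 spots (78.3%) and in 136 of the others (5.75%), and after thinning each spot to 1000 UMIs in 36.7% and 1.48%. All 12 compared genes of the interferon and antigen presentation list were at least 2-fold higher (median 3.23), including Ifitm1 (4.48), Ifitm3 (3.85), Bst2 (3.81) and the class I light chain gene B2m (2.60). Of the markers of border-associated macrophages, Pf4 (5.32, 4.83 to 5.82) and Stab1 (3.53, 3.25 to 3.80) could be compared. Below the minimum, Cd163 had 26 UMIs in the 120 spots and 23 elsewhere, F13a1 had 45 and 41, and Mrc1 13 and 23, while Lyve1 had none in either. Microglial markers were less raised, with 6 of 10 at least 2-fold higher (median 1.13), from Tmem119 at 1.23 to Siglech at 0.20, and a list sum of 385 CPM in the 120 spots, against 207 in the others. Of the other leukocyte markers only the 3 class II genes passed the minimum (median 5.48). The T cell gene Cd3e had 1 UMI, the B cell genes Cd79a and Ms4a1 had 1 and 0, and the neutrophil gene S100a8 and mast cell gene Cma1 had 0 in the 120 spots, a count that allows up to 3 UMIs.

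Since the class II genes were high together, the promoters of 2 class II chains are shown, from RefSeq on build GRCm38.p6, each from 250 bases before the start of the gene to 50 after it, with the letters CTGATTGG (a form of the Y box, a known class II promoter element) in capitals. They lie at chr17:34287774-34288073 (minus strand, H2-Aa) and chr17:34305617-34305916 (plus strand, H2-Eb1). H2-Eb1 had 35 UMIs in the 120 spots and 17 elsewhere, below the minimum. The third window, of the smooth muscle gene Myl9 at chr2:156775214-156775513 (plus strand), is shown for a CArG box, the element that serum response factor binds, in capitals.
H2-Aa: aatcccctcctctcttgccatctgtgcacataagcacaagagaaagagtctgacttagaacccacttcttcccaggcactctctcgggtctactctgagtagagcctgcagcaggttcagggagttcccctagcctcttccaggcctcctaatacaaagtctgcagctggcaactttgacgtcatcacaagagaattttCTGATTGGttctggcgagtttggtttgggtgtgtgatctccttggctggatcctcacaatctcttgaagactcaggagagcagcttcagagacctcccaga
H2-Eb1: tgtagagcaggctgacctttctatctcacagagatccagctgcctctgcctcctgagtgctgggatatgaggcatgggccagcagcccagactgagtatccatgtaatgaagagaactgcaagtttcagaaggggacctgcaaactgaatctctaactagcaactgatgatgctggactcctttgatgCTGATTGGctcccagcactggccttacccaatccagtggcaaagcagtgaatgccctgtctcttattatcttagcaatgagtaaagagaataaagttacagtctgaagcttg
Myl9: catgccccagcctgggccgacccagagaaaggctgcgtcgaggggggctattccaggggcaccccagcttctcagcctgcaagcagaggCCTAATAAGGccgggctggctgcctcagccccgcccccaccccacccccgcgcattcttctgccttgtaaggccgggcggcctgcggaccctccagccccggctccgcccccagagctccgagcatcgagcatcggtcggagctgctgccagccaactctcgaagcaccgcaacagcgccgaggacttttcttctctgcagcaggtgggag
The match begins 51 bases before the start in H2-Aa, 62 in H2-Eb1 and 161 in Myl9. Searched on both strands, CTGATTGG was found in 1346 of 32851 promoter windows of the table (4.10%) and in both class II chains that the table held of 3 looked for. It was also found in 1 of 8 smooth muscle genes with a window, of 10 listed. The CArG box was found in 535 of all windows (1.63%) and in 1 of those 8 smooth muscle genes, Myl9, which was chosen for printing because it held the match. A match describes these letters in the window and is neither a bound site nor a cause.

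Complement genes were raised, with 7 of 9 at least 2-fold higher and none lower (median 1.85). Serping1, the C1 inhibitor gene, was at 4.43, C4b at 3.74 (3.61 to 3.87) and C1qa at 1.93. C4b ran per spot from 0 through a median of 807 to 6437 CPM in the 120 spots and from 0 through 0 to 9300 in the others. The highest C4b spot was thus not among the 120, although 111 of them were above the median of the others.

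Genes of the glia limitans, the astrocyte layer under the pia, were raised in most cases. At 2-fold or more, 11 of the 18 listed genes were higher and 1, Crym, was lower (median 1.38). Myoc (myocilin) was at 4.49 (4.38 to 4.60), the intermediate filament genes Vim and Gfap at 4.05 and 3.64, and Aqp4, the water channel of end feet, at 2.79. Gfap ran per spot from 0 through a median of 1989 to 13493 CPM in the 120 spots, and from 0 through 71.9 to 10548 in the others. Of the 120, 1 lay above the highest of the others and 119 above their median. Of the 12 astrocyte markers 7 were higher and none lower (median 1.20), but the glutamate transporter gene Slc1a2 (0.21) and Aldoc (0.41) were within 2-fold. Astrocyte markers together made 16754 CPM in the 120 spots and 6787 in the others, and whether more astrocytes or more RNA per astrocyte lay behind this cannot be told apart in spots. The same holds for every cell type named here.

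Markers of the other border tissues went different ways. Arachnoid barrier markers had 4 of 7 higher (median 1.27), with Crabp2, Aldh1a2 and Ptgds high but Slc4a10 at -0.36 and the claudin gene Cldn11 at 0.56. Cdh1 and Slc47a1, which define that layer, were below the minimum, with 12 and 14 UMIs in the 120 spots and 6 and 9 elsewhere. The other tissue spots held far more UMIs in all, so these counts stand for higher levels in the 120 spots. In the spots of the 120 outside the largest patch, the log2 ratios were 7.38 (5.85 to 9.08) for Cdh1 and 6.79 (5.42 to 8.22) for Slc47a1. Dural markers went both ways, with 3 of 7 higher and 2 lower (median 0.97), from Foxc2 at 5.75 and Gpc3 at 2.77 to Penk at -1.03 and Matn4 at -1.30, and Kera was at 0 in both sets. Among choroid plexus markers 1 of 4 was higher (median 0.22): Ttr at 2.54, with 94 UMIs, 82 of them in the largest patch. Kcne2, another marker of that epithelium, had 0 UMIs and Otx2 had 2. Of 5 nerve root and Schwann cell markers 1 was higher (median 0.55), Pmp22 at 2.41. Ependymal cells had 1 compared gene, Rsph1, at 0.09. The fibroblast and smooth muscle lists had medians of 4.56 and 4.61, and the dural, choroid plexus and ependymal lists had lower medians than those 2. The spots were picked by genes of meninges and large vessels, and the lists with earlier results known. These medians are therefore a description and no check of the label. The dural median passed 2-fold under 7 of 22 other settings, over which it ran from 0.41 to 4.98. The highest was against spots of the nearest UMI total. There 3045 genes reached the minimum, in place of 10997, so the genes behind that median can differ.

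Neuronal RNA was lower but present in every spot. Of 14 neuron markers 12 were at least 2-fold lower and none higher (median -1.13), and summed they made 3952 CPM in the 120 spots, against 9950 in the others, with ranges over spots of 85.9 to 12083 and 0 to 37422. The neurofilament gene Nefm was at -3.03 (-3.44 to -2.65), Snap25 of the synaptic vesicle machinery at -1.89 and the vesicular glutamate transporter gene Slc17a7 at -1.82, while Camk2a, whose RNA is carried into dendrites, was at -0.04 (-0.14 to 0.05). Snap25 ran per spot from 0 through a median of 461 to 2405 CPM in the 120 spots and from 0 through 1682 to 11324 in the others, and 3 of the 120 were above the median of the others. The list median was -0.97 on totals without haemoglobin, Ptgds and the score genes. Oligodendrocyte markers had none of 11 past 2-fold either way (median 0.15), from Mal at 0.82 to Ugt8a at -0.36. They made 7867 CPM in the 120 spots and 7252 in the others, with a range over spots of 0 to 63119 in the 120.

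The 10 genes with the lowest ratios each had 0 to 2 UMIs in the 120 spots and several of them are genes of particular neurons. Tph2, which makes serotonin in raphe neurons, had 0 UMIs against 1589 in the other tissue spots and was at least 17.1-fold lower, taking 3 UMIs as the floor for the set. Kcnk4, a potassium channel gene, had 2 against 984 (log2 -3.99, -7.03 to -2.13). Trhde, an enzyme that degrades thyrotropin-releasing hormone, had 1 against 487 (-3.97, -9.28 to -1.49), and Ntsr1, a neurotensin receptor gene of deep cortex, 1 against 423 (-3.77, -9.08 to -1.28). Elavl2, an RNA-binding protein gene of neurons, had 2 against 787 (-3.66, -6.71 to -1.81). The others were 1110032F04Rik, Gm11549, Mapk13, Cited1 and Spag4, and their intervals are as wide.

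Levels fell off within 2 grid steps of the 120 spots for the meningeal genes. Ptgds was at 56445 CPM in the 120 spots, 9827 in the 126 spots that touch one, 2429 at 2 steps, 1179 at 3 steps, 1656 at 4 to 5 steps, 1366 at 6 to 10 steps and 1160 beyond. Slc22a6 was at 281, 42.8, 8.14 and 0.988 CPM at 0 to 3 steps, the last from 2 UMIs, and at 5.48 at 4 to 5 steps. Slc6a13 was likewise at 2.47 at 3 steps and 8.07 at 4 to 5 steps, so levels did not fall steadily past 3 steps. Hba-a2 followed the same course, with 29551, 7433, 1889 and 1031 at 0 to 3 steps. Gfap declined over a longer range, from 2775 at 0 steps through 1215, 394 and 240 at 1, 2 and 3 steps to 178 at 6 to 10 steps and 70.4 beyond. Snap25 ran the other way, at 527, 1174, 1452 and 1688 at 0 to 3 steps, 2245 at 6 to 10 steps and 1972 beyond. Touching spots include those that just missed the score limit, so the first step partly follows from the rule.

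**Figure D4:**
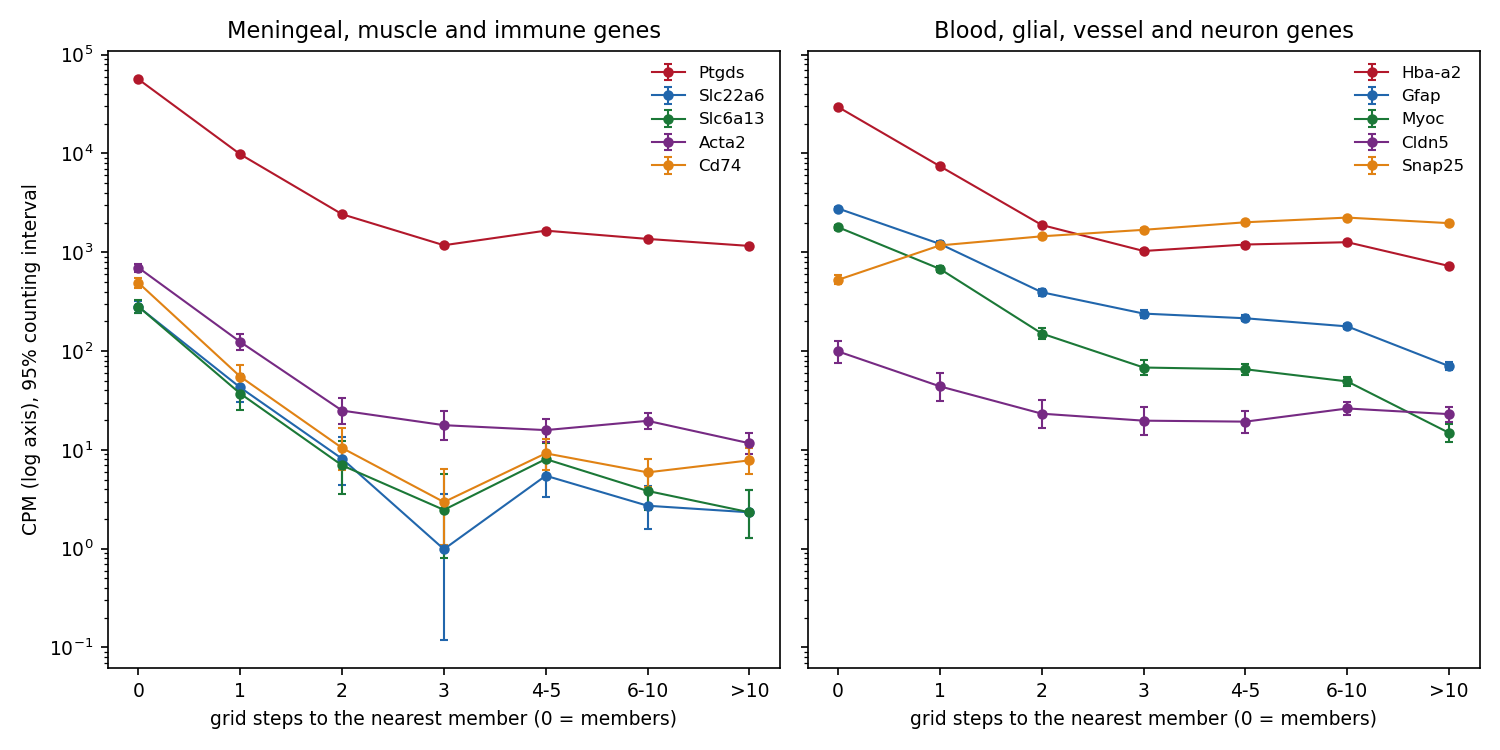
CPM (log axis, with 95% counting intervals) against grid steps to the nearest of the 120 spots, for 5 meningeal, muscle and immune genes (left) and 5 blood, glial, vessel and neuron genes (right). Ptgds is at 56445 in the 120 spots and 2429 at 2 steps, and Snap25 is at 527 and 1452.

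The 120 spots were not alike among themselves, and the split by place, the largest patch against the other 54 spots, went with differences in content. The other 54 were mostly at the tissue edge but some lay near the band. A patch of 3 spots filled rows 37 to 38 and columns 50 to 53, and 1 of 7 spots rows 38 to 43 and columns 37 to 41. That patch of 7 held 2985 CPM of smooth muscle and 74483 CPM of red blood cell genes. Between the 66 spots of the largest patch (410450 UMIs, median 5836 per spot) and the other 54 (244732 UMIs, median 3990), 1213 genes had at least 100 UMIs over both and were compared. Of these, 38 (3.13%) were at least 2-fold higher and 16 (1.32%) at least 2-fold lower in the largest patch, with a median of 0.03. All 6 compared smooth muscle genes were among the higher ones (median 1.64), led by Myl9 (1.84, 1.37 to 2.35), Mylk (1.69), Acta2 (1.68, 1.31 to 2.06) and Tagln (1.61). Acta2 was at 940 CPM in the largest patch and 294 in the other spots, and it was found in 54 of 66 and 25 of 54 spots. Eln, the elastin gene of arterial walls, was at 1.96 (1.44 to 2.53), Crip1, a LIM protein gene, at 1.98, Cyp1b1 at 1.68, the plasma retinol carrier gene Rbp4 at 1.50, Cxcl12 at 1.14 and Col1a1 at 1.01. Glial genes higher there were Fabp7 (1.89), Aqp4 (1.63) and Vim (1.03). Summed over spots, the smooth muscle markers made 4203 CPM in the inner band and 1463 CPM in the other 54 spots, but 3 small patches of those 54, of 1 or 2 spots each, held 5604 to 6738 CPM.

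The spots on the borders held more Ptgds and more of part of the transporters. Ptgds was at 38319 CPM in the largest patch and 86846 in the other spots (-1.18, -1.21 to -1.15), with spot medians of 25222 and 50680 and overlapping ranges of 4527 to 202689 and 6967 to 290167. Slc22a8 was at 115 CPM in the largest patch and 351 CPM in the other spots (-1.62, -2.16 to -1.09), the amino acid carrier Slc38a2 at -1.21 and Bmp7 at -1.02. Slc22a6 (-0.62), Slc13a4 (-0.65) and Slc6a13 (-0.10) were within 2-fold. The arachnoid barrier genes Cdh1 and Slc47a1, below the minimum, had 0 and 2 UMIs in the largest patch and 12 each in the other spots. Aldh1a2, also below it, had 56 UMIs in the largest patch and 14 in the other spots. The myelin genes Mag (-1.05) and Fa2h (-1.53) and Chga, a secretory granule gene of neurons (-1.60), were also lower in the largest patch. Red blood cell genes had 1 of 4 past 2-fold in pooled counts (median 0.85), Hbb-bt at 1.06. Spot by spot they differed more. Their sum had a median of 47840 CPM in the largest patch and 8242 in the other spots, with overlapping ranges of 6928 to 119609 and 1233 to 150402. In either set each of the 20 leading genes was at least 2-fold higher than in the other tissue spots, at 4.42 to 6.15 in the largest patch and 3.78 to 6.43 in the others. The 20 genes were picked by their ratios in these sets pooled, against the same other tissue spots. Their high ratios in each set therefore follow in part from that choice, and are a description and no independent check.

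**Figure D5:**
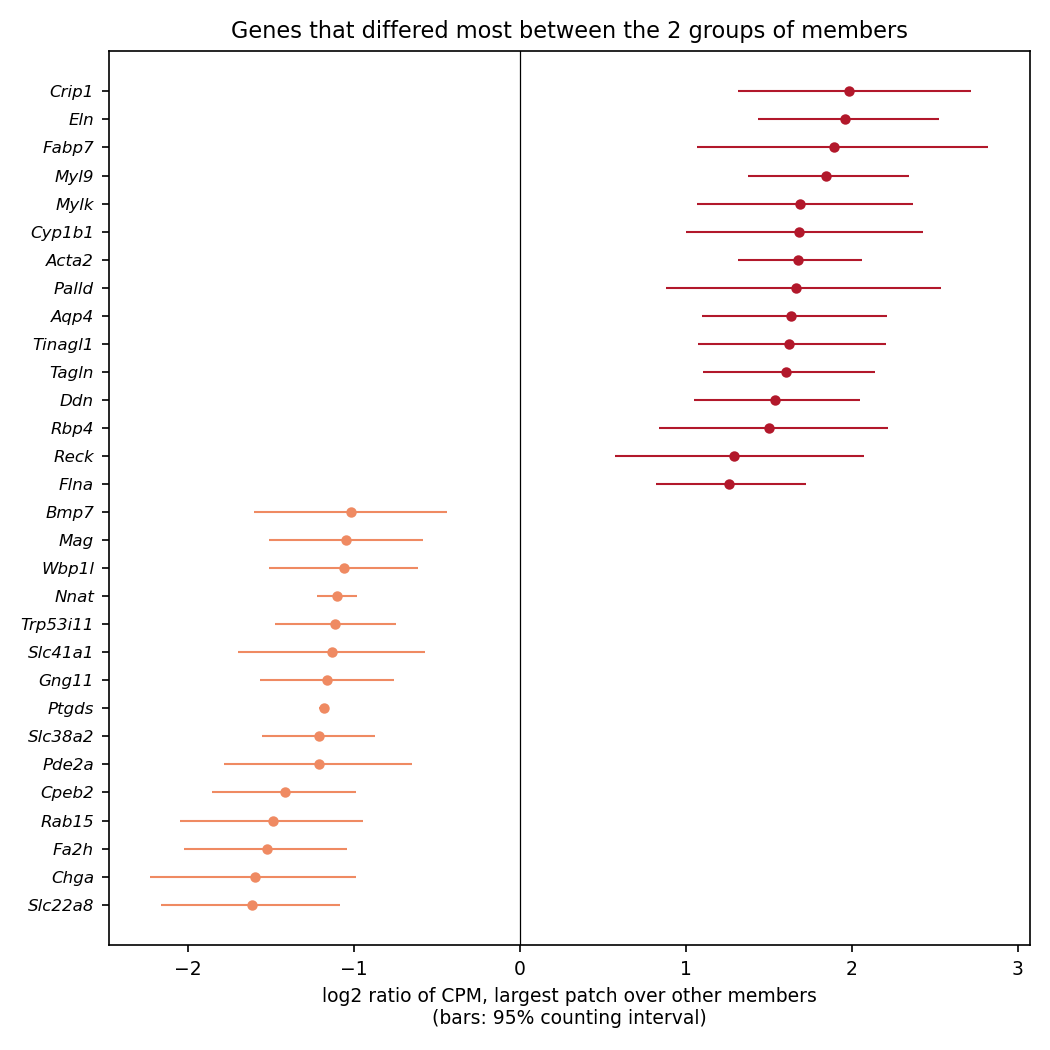
Log2 ratio of CPM, the largest patch over the other spots of the 120, for the 15 genes of highest and 15 of lowest ratio among 1213 compared, with 95% counting intervals (bars). Crip1, Eln and Fabp7 head the higher genes at 1.98, 1.96 and 1.89, and Slc22a8 is the lowest at -1.62.

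Over the 5 patches of 5 or more spots, which hold 96 of the 120, the summed level of 5 organic anion, sulfate, dicarboxylate and GABA transporters (Slc13a4, Slc22a6, Slc6a13, Slc13a3 and Slc22a8) ranged from 585 to 1815 CPM, and the 10 smooth muscle genes from 351 to 4203. Ptgds ranged from 32908 to 121513 and the red blood cell genes from 4856 to 74483. A patch of 3 spots at the edge reached 242119 CPM of Ptgds. Transporters and muscle genes were thus not highest in the same patch of the 5: the most transporter RNA was in a patch of 7 spots with 825 CPM of muscle genes, and the most muscle RNA in the largest patch with 904 of transporters. Among the smaller patches, a lone spot held much of both, with 3260 CPM of transporters and 6738 of muscle genes. Oligodendrocyte markers ranged from 1898 to 26398, so that patches also differed in the brain tissue they took in.

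Across the 120 spots, some of the gene sums went together. The transporter sum followed Ptgds (Spearman's rho 0.65, and 0.65 within the largest patch and 0.71 in the others). The smooth muscle sum followed the red blood cell sum (0.61) and the sum of 7 fibroblast matrix genes (0.54, and 0.67 and 0.25 in the 2 sets). Red blood cell genes also followed the oligodendrocyte sum (0.54, and 0.32 in the largest patch and 0.71 in the others). With the endothelial sum they were at 0.31 (0.54 and 0.29). The correlation was -0.03 between transporters and muscle and -0.32 between red blood cell genes and Ptgds, the second of which was -0.35 in the largest patch and 0.12 in the others. Transporters and the fibroblast matrix sum were at 0.26 over the 120 and at 0.13 in the largest patch and 0.48 in the others, where this was more than the 0.25 of muscle and matrix. The sums therefore did not fall into separate groups. Class II genes followed the muscle sum at 0.43, the sum of 4 retinoid genes at 0.41, red blood cell genes at 0.40 and fibroblast matrix at 0.35. They were at -0.42 with the neuron sum, so the link to muscle was not particular. These are descriptions over 120 spots of 1 library that share its depth and totals, and neighbouring spots are not independent.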

How the data were processed

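Spatial expression was measured on sections that were methanol-fixed, hybridised with probe pairs and transferred to a Visium slide by CytAssist, as the labels' protocols say. The deposited files hold raw UMI counts per gene and spot, not normalized, made with Space Ranger 3.1.1 per the file headers, and mm10 is the build in the submitters' processing notes. The matrices of both samples were identical and were used once, with the tissue mark of the list labelled WT (2487 spots, of which 2485 had at least 500 UMIs). That choice assigns no genotype. The list labelled G2-3 marks 2969 spots, of which 2218 have counts, and 95 of the 120 spots and 2003 of the other 2365 are marked in both. The 11 symbols shared by several gene IDs were kept apart by ID.

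The spots, gene lists and motifs were chosen with earlier results of these data known. Counts were summed over spots and scaled to 1000000 (CPM). A log2 ratio has an exact conditional (Clopper-Pearson) 95% interval for 2 Poisson counts, and a count of 0 was set to 3 for the set. Genes needed 100 UMIs over both sets, and at least 2-fold is the size rule used in place of a test. The calculation was tested on simulated data. Named genes were drawn from the 20 of highest and 10 of lowest ratio, then up to 5 of highest and 3 of lowest ratio in each list and genes with a role that defines a list. Not all genes that the rule allows are described. Of the 20, Mpzl2 (5.59) and Fgl2 (5.48) are named only here. Some genes stand in more than 1 list. A gene named outside this rule was chosen after its values were seen. Correlations are Spearman's over spots. Thinning drew 1000 UMIs per spot. Python 3.11.15, numpy 2.4.6, scipy 1.17.1, pandas 2.3.3 and networkx 3.6.1 were used. In all, 22 other settings and 4 chosen after the data were seen were run.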

Additional observations from a re-analysis of the deposited data

Results flagged for a closer look

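Spots outside the tissue mark, which the comparisons above leave out, carried the score genes. In all, 235 barcodes with counts lay outside the mark of the list labelled WT. Edge and outside are meant by that mark, and whether it fits the section that gave the counts was not tested. The 6 score genes made 3199 CPM in the 187 such spots with at least 500 UMIs, against 507 CPM in all 2485 tissue spots, the 120 included. Of the 187, 56 had a score at or above that of the lowest of the 120 spots (29.9%, exact 95% binomial interval 23.5 to 37.1). The share in tissue is fixed by the rule, which took 120 of 2485 spots, so it is no measured level to compare with. Of the 56, 52 touched tissue and 32 touched 1 of the 120.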

How the results depend on the processing

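The list medians and named genes at 2-fold or more, 72 in all, were recomputed under 22 other settings and 4 chosen after seeing the data, in 1794 comparisons, of which 51 were under 2-fold and 1 reversed. Some settings could change little or nothing. A UMI minimum of 1000, and keeping only spots with at least 4 score genes, left both sets as they were. Their outcome was fixed in advance. No UMI minimum gave the same counts of 1273 and 1802. The reversal was Spag4, at 0.47 in the high-scoring spots outside the tissue mark against -3.64 in the 120 spots, where it rests on 1 UMI. The counts of 1273 higher and 1802 lower genes depended on the spots set against the 120: 217 higher and 408 lower of 3574 compared against the touching spots, and 259 higher and 416 lower of 3045 compared against spots of the nearest UMI total, where fewer genes reach the minimum. With 240 spots 996 genes were lower. A minimum of 20 UMIs gave 2360 higher genes and one of 500 gave 425. TMM scaling gave 1318 higher and 1742 lower. The share at the tissue edge, 51.7%, was 66.1% with all barcodes admitted, 59.2% with spots marked in the G2-3 list, 24.2% in the largest patch alone and 86.5% without it. List medians with no stable sign were those of oligodendrocytes (-0.68 to 0.39 over the 22 settings), Wnt genes (-0.29 to 0.64), choroid plexus (-0.19 to 1.37) and ependyma (-0.10 to 1.60). The median of fibrillar and other collagens reached 2-fold under 6 of the 22 settings (0.32 to 4.56 over all), and that of the dura under 7 (0.41 to 4.98). Both highest values were against spots of the nearest UMI total, where fewer genes are left. Against the touching spots the medians fell under 2-fold for microglia (0.10), astrocytes (0.45), basement membrane (0.77), endothelium (0.78), the arachnoid barrier (0.82), complement (0.87) and chemokines (0.94). Against spots of the nearest UMI total those of basement membrane (0.88), matrix processing (0.60), endothelium (0.91), astrocytes (0.72) and neurons (-0.99) did so. With 240 spots those of insulin-like growth factor (0.68), bone morphogenetic protein (0.79), chemokine (0.78), arachnoid barrier (0.82) and neuron (-0.89) genes did so. Outside the largest patch the bone morphogenetic protein median was 0.44, and with all barcodes admitted the pericyte median was 0.84. At a minimum of 500 UMIs basement membrane was at 0.63 and matrix processing at 0.52. The glia limitans median was 0.95 in the high-scoring spots outside the tissue mark. The large-vessel endothelial median was 0.06 at a minimum of 500 UMIs, where fewer genes are left. For the other moves the cause was not tested. No paired analysis was possible because both samples hold the same matrix, which was counted as 1 library.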

Other observations

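The 56 high-scoring spots outside the tissue mark, with 227539 UMIs, were also set against the other tissue spots. Of 10924 genes compared there, 1382 (12.7%) were at least 2-fold higher. All 20 leading genes of the 120 spots were among them (log2 4.44 to 6.12, median 5.17). Slc22a6 was at 6.09, Foxc2 at 6.12 and Slc6a13 at 5.75, and Ptgds was at 78589 CPM in the 56 spots, against 1795 in the other tissue spots. Neuronal Nefm was at -2.53 and Snap25 at -1.76. Both sets have high values of the same score and were set against the same spots, so these values are a description and no independent check.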
